A study of Homo sapiens with 12 samples.

Results

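The 10 genes described here are 4 aldo-keto reductases, AKR1C1, AKR1C2, AKR1C3 and AKR1B10, and 6 other genes known as targets of the transcription factor NRF2, namely NQO1, HMOX1, GCLM, GCLC, TXNRD1 and SRXN1. They were chosen by name with values measured in these libraries already known, so that their own values are a description and carry no test. The deposited table lists 46931 genes, holds all 10 on assembled chromosomes, and all 10 were among the 18143 genes that passed the filter on low counts. RNA was sequenced from MCF10A, an immortalised human mammary epithelial line that the labels give as wild type, grown in every group with horse serum, insulin, hydrocortisone and EGF. The siYT_XMU group had been transfected with sets of siRNA (11 nM) targeting YAP and TAZ and, after 48 h, exposed for 6 h to 5 µM of XMU-MP1, which blocks the Hippo kinases MST1 and MST2. The siYT_DMSO group had the same siRNA and the solvent DMSO for 6 h. The siC_XMU group had control siRNA at 22 nM and XMU-MP1, and the siC_DMSO group had control siRNA and DMSO. Each group holds 3 libraries, lettered a, b and c by the submitters, from the same line.

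NRF2, the product of NFE2L2, is held down by KEAP1, which hands it to a ubiquitin ligase for degradation. When oxidants or electrophiles modify KEAP1, NRF2 enters the nucleus, pairs with a small MAF protein and binds antioxidant response elements of genes for glutathione synthesis, thioredoxin recycling, quinone reduction and carbonyl reduction. BACH1 competes for the same elements and is best known as a repressor of HMOX1. The AKR1C enzymes reduce ketosteroids, prostaglandins and reactive carbonyls with NADPH, and their genes lie side by side as near-identical copies.

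The sequences upstream of the AKR1C genes show how alike the copies are. How the authors assigned reads that match several copies is not given in the sources used here. For that question the likeness of the coding sequences, given below, matters, and not that of the upstream bases. The RefSeq promoter table (GRCh38.p14) held 8 of the 10 genes, in 10 windows, with no entry for AKR1B10 and HMOX1. The 250 bases before the start of AKR1C1 (chr10:4963165-4963414, plus strand), of AKR1C2 (chr10:5003858-5004107, minus strand) and of the first listed start of AKR1C3 (chr10:5048531-5048780, plus strand) are given 5′ to 3′. In AKR1C2 and AKR1C3 capitals mark the bases that differed from AKR1C1 in a pairwise alignment or had no aligned base in its window.
AKR1C1: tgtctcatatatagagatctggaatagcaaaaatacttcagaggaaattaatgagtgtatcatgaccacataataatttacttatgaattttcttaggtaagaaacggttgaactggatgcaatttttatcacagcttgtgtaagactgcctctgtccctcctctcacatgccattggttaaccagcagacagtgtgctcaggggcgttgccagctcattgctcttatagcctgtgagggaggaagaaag
AKR1C2: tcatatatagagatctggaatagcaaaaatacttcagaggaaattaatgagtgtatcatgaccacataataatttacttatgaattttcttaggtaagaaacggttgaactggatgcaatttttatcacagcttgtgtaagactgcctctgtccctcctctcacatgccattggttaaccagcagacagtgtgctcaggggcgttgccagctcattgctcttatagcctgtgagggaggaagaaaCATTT
AKR1C3: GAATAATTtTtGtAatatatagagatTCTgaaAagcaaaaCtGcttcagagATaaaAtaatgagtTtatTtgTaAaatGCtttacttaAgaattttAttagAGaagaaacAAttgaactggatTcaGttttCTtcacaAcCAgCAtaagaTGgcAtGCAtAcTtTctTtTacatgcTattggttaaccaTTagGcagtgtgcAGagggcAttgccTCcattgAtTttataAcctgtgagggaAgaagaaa

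Of 246 aligned bases of AKR1C2, 245 were identical to AKR1C1 (99.6%), and the 5 capitals stand together at the end next to the gene. Of these capitals 1 differed, and 4 had no aligned base in the AKR1C1 window. Of 241 aligned bases before the first listed start of AKR1C3, 185 were identical to AKR1C1 (76.8%), and the 65 capitals are spread along the window. Of these capitals 56 differed, and the rest had no aligned base in the AKR1C1 window. The window of the other listed start of AKR1C3 (chr10:5094164-5094413) was not compared. The coding sequences of GENCODE release 29 were alike too, with 98.0% identity between AKR1C1 and AKR1C2, 91.5% between AKR1C1 and AKR1C3, and 91.0% between AKR1C2 and AKR1C3. Of all 50-base stretches of the AKR1C1 coding sequence, 51.8% occur unchanged in AKR1C2, and of all 100-base stretches 19.1% do. AKR1B10 has a near copy too, AKR1B15, at 93.8% identity, with 19.7% of 50-base stretches shared. The split of counts between these copies is therefore uncertain, and the sum of AKR1C1, AKR1C2 and AKR1C3 is given beside the single genes.

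The windows were searched on both strands for the core of the antioxidant response element, TGACNNNGC, for the AP-1 motif TGANTCA and for the TEAD motif GGAATG, where N is any base. The antioxidant core was found in 3 of the 10 windows, upstream of GCLM and of both listed starts of TXNRD1, and in 10.9% of all 35116 windows in the table. These 3 windows are shown with the 9 bases of the core in capitals. They are chr1:93909431-93909680 on the minus strand for GCLM, and chr12:104215529-104215778 and chr12:104286782-104287031 on the plus strand for the starts of TXNRD1.
GCLM: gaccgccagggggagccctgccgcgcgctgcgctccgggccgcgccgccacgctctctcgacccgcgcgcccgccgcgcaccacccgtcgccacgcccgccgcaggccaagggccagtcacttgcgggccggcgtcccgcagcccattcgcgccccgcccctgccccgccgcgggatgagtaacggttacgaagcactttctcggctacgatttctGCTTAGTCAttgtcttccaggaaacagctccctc
TXNRD1 first start: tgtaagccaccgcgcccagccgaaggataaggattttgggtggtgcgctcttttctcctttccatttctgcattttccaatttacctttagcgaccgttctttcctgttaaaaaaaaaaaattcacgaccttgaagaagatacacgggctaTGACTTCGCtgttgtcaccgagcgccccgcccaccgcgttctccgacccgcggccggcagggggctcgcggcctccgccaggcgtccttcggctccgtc
TXNRD1 second start: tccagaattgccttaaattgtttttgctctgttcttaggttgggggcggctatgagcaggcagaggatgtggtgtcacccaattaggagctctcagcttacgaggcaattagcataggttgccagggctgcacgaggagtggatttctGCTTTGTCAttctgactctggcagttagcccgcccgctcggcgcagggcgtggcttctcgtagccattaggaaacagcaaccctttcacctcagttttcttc

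The core lies at positions -34 to -26 before the start of GCLM, and at -99 to -91 and -102 to -94 before the starts of TXNRD1. The AP-1 motif was in none of the 10 windows and in 6.57% of all windows. The TEAD motif was in 1 of the 10, that of SRXN1 at -51 to -46, and in 11.9% of all windows. These are matches of letters within 250 bases and say nothing of binding. Sites further from the start were not searched, and AKR1B10 and HMOX1 had no window. A window without the core therefore does not mean that the gene lacks the element.

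Depth differed between libraries. Total counts ran between 8243351 (library c of siYT_XMU) and 67953633. In that library ribosomal RNA took 35.0% of counts, against 1.86 to 8.35% in the other 5 libraries with siRNA against YAP and TAZ and 1.02 to 2.52% in the 6 with control siRNA, and 15135 genes had counts, against 17950 to 20704 elsewhere. The siRNA targets were low in the groups labelled so. YAP1 averaged 5.28 ± 1.42 CPM in siYT_XMU and 136 ± 4.97 CPM in siC_XMU, and 9.86 ± 2.49 CPM in siYT_DMSO and 206 ± 15.4 CPM in siC_DMSO (CPM, counts scaled to library totals with TMM factors, mean ± SD, n = 3 each), and WWTR1, the gene of TAZ, averaged 1.12 ± 1.06 CPM in siYT_XMU and 57.7 ± 2.31 CPM in siC_XMU, and 4.14 ± 0.427 CPM in siYT_DMSO and 32.3 ± 7.37 CPM in siC_DMSO. All 10 mammary epithelial markers checked had counts, and they summed to between 7363 and 24314 CPM in every library. Of these 10, 3 were called higher and 4 lower in both knockdown comparisons (edgeR, adjusted p under 0.05 over all tested genes). KRT17, a keratin, averaged 8450 ± 3144 CPM in siYT_XMU and 702 ± 220 CPM in siC_XMU, and 5681 ± 3189 CPM in siYT_DMSO and 690 ± 121 CPM in siC_DMSO. KRT8, another keratin, averaged 537 ± 228 CPM in siYT_XMU and 2164 ± 349 CPM in siC_XMU, and 423 ± 62.3 CPM in siYT_DMSO and 1881 ± 105 CPM in siC_DMSO. Epithelial markers thus moved in both directions alongside the genes described below, and their part in those values was not tested. In bulk RNA, fewer cells of a type and less RNA per cell cannot be told apart.

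The 3 AKR1C genes were far higher with siRNA against YAP and TAZ than with control siRNA, in DMSO and in XMU-MP1, and no library of a knockdown group overlapped with one of its control group. AKR1C1 was 19.2-fold higher in DMSO and 14.8-fold higher in XMU-MP1, AKR1C2 13.9-fold and 17.5-fold, and AKR1C3 6.67-fold and 7.46-fold. XMU-MP1 itself made less difference than the spread between libraries for each of the 3 genes in either siRNA arm.

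AKR1C1 (ID 1645, chromosome 10, 4963415 to 4983283, plus strand, in the table's RefSeq coordinates on GRCh38.p13) is the family member that inactivates progesterone. It had 62.7, 122 and 76.4 CPM in libraries a, b and c of siYT_XMU, 71.7, 74.3 and 98.6 CPM in siYT_DMSO, 1.84, 12.8 and 3.00 CPM in siC_XMU, and 2.89, 5.20 and 4.60 CPM in siC_DMSO. The lowest knockdown library thus lay at 62.7 CPM, and the highest control library at 12.8 CPM. The log2 fold change was 4.27 (SE 0.64) for siYT_DMSO over siC_DMSO and 3.89 (SE 0.63) for siYT_XMU over siC_XMU. Library b of siC_XMU weighs on the second value, which was 5.15 (SE 0.44) without it.

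AKR1C2 (ID 1646, chromosome 10, 4987775 to 5018033, minus strand) reduces dihydrotestosterone to a weak androgen. It had 104, 229 and 81.2 CPM in siYT_XMU, 85.5, 121 and 79.8 CPM in siYT_DMSO, 3.25, 13.2 and 7.31 CPM in siC_XMU, and 4.32, 9.50 and 6.72 CPM in siC_DMSO. Its log2 fold change was 3.80 (SE 0.54) in DMSO and 4.13 (SE 0.55) in XMU-MP1. Library b was the highest of its group for this gene in all 4 groups.

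AKR1C3 (ID 8644, chromosome 10, 5048766 to 5107686, plus strand) forms testosterone from androstenedione and acts on prostaglandins. It had 111, 188 and 93.4 CPM in siYT_XMU, 89.3, 115 and 113 CPM in siYT_DMSO, 9.18, 25.9 and 17.6 CPM in siC_XMU, and 9.37, 22.5 and 15.7 CPM in siC_DMSO. Its difference was smaller than that of the other two on the log2 scale, at 2.74 (SE 0.42) in DMSO and 2.90 (SE 0.42) in XMU-MP1, and its level with control siRNA was the highest of the 3. Within each control group library a was the lowest and library b the highest for AKR1C3, as for AKR1C1 and AKR1C2.

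The summed counts of the 3 genes do not depend on how reads were split between them, provided that each shared read was counted once. Whether shared reads were dropped or counted for each copy is not known, and either would change the sum. The sum stood at 278, 539 and 251 CPM in siYT_XMU, 246, 311 and 291 CPM in siYT_DMSO, 14.3, 51.9 and 27.9 CPM in siC_XMU, and 16.6, 37.2 and 27.0 CPM in siC_DMSO. Its log2 fold change was 3.39 (SE 0.48) for the knockdown in DMSO and 3.51 (SE 0.48) in XMU-MP1. For XMU-MP1 the sum gave 0.33 (SE 0.43) after the knockdown and 0.22 (SE 0.43) in control siRNA, both smaller than their errors. AKR1C4, the liver member of the family, had a count of 0 in all 12 libraries, which allows at most between 0.0382 and 0.622 CPM by library, for counting error only.

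For XMU-MP1 the single genes gave log2 fold changes of 0.09 (SE 0.56) for AKR1C1, 0.54 (SE 0.49) for AKR1C2 and 0.31 (SE 0.39) for AKR1C3 after the knockdown. In control siRNA they gave 0.47 (SE 0.56), 0.21 (SE 0.49) and 0.15 (SE 0.39) in the same order of genes. The sign in control siRNA rests on library b of siC_XMU, without which the 3 values were -0.80 (SE 0.36), -0.37 (SE 0.49) and -0.25 (SE 0.40). The effect of XMU-MP1 after the knockdown minus that in control siRNA was -0.38 (SE 0.79), 0.33 (SE 0.69) and 0.16 (SE 0.55), and without that library 0.89 (SE 0.47), 0.91 (SE 0.65) and 0.55 (SE 0.54), so that the sign for AKR1C1 also rests on it.

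AKR1B10 (ID 57016, chromosome 7, 134527567 to 134541412, plus strand), which reduces retinal and reactive aldehydes, stood at 10.5, 28.8 and 0 CPM in siYT_XMU, 7.92, 15.4 and 7.44 CPM in siYT_DMSO, 3.05, 2.77 and 1.55 CPM in siC_XMU, and 3.84, 5.69 and 2.42 CPM in siC_DMSO. The 0 is a count of 0 in the shallow library c, which allows up to 0.622 CPM. The groups did not overlap in DMSO, and in XMU-MP1 they overlapped through that library. The log2 fold change was 1.37 (SE 0.96) in DMSO and 2.45 (SE 0.99) in XMU-MP1, and 1.36 (SE 0.48) and 3.00 (SE 0.53) without library c of siYT_XMU. XMU-MP1 gave 0.38 (SE 0.94) after the knockdown and -0.70 (SE 0.95) in control siRNA, and 0.93 (SE 0.52) and -0.70 (SE 0.48) without the same library.

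**Figure D1:**
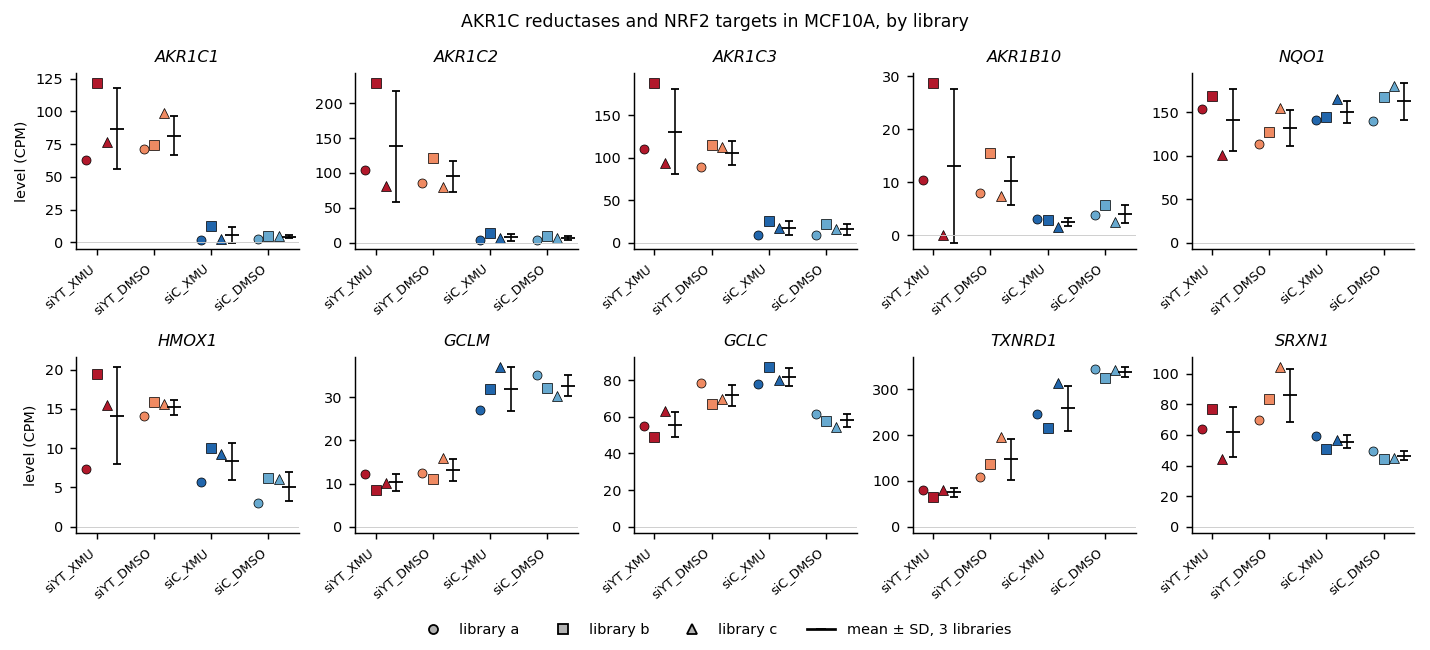
Level of each of the 10 genes (vertical axes, CPM) in the 12 libraries, by group, with circles, squares and triangles for libraries a, b and c and bars for the mean ± SD of 3. AKR1C1, AKR1C2 and AKR1C3 lie at 62.7 CPM or above in the 6 knockdown libraries and at 25.9 CPM or below in the 6 control siRNA libraries, while GCLM and TXNRD1 are lower in every knockdown library than in any control library.

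NQO1 (ID 1728, chromosome 16, 69709401 to 69726560, minus strand) reduces quinones to hydroquinones and is much used as a reading of NRF2 activity. It had 154, 169 and 100 CPM in siYT_XMU, 113, 128 and 155 CPM in siYT_DMSO, 141, 145 and 165 CPM in siC_XMU, and 140, 167 and 181 CPM in siC_DMSO. All 4 groups overlapped. The log2 fold change of the knockdown was -0.30 (SE 0.20) in DMSO and -0.09 (SE 0.20) in XMU-MP1, and that of XMU-MP1 0.10 (SE 0.20) after the knockdown and -0.11 (SE 0.20) in control siRNA.

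HMOX1 (ID 3162, chromosome 22, 35381096 to 35394207, plus strand) encodes the inducible haem oxygenase, which opens haem to biliverdin, iron and carbon monoxide. It had 7.34, 19.5 and 15.5 CPM in siYT_XMU, 14.1, 15.9 and 15.6 CPM in siYT_DMSO, 5.65, 10.1 and 9.22 CPM in siC_XMU, and 2.96, 6.14 and 6.12 CPM in siC_DMSO. All knockdown libraries lay above all control libraries in DMSO, at 3.00-fold (log2 1.59, SE 0.40). In XMU-MP1 the groups overlapped through library a of siYT_XMU, with a log2 fold change of 0.76 (SE 0.39), and 1.07 without that library. XMU-MP1 gave -0.11 (SE 0.39) after the knockdown and 0.71 (SE 0.39) in control siRNA, and the groups overlapped in both cases.

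GCLM and GCLC encode the modifier and the catalytic subunit of glutamate-cysteine ligase, the first enzyme of glutathione synthesis. GCLM (ID 2730, chromosome 1, 93885199 to 93910370, minus strand) had 12.3, 8.47 and 10.2 CPM in siYT_XMU, 12.4, 11.1 and 15.9 CPM in siYT_DMSO, 27.0, 31.8 and 37.0 CPM in siC_XMU, and 35.2, 32.3 and 30.4 CPM in siC_DMSO. Every knockdown library was below every control library, 2.48-fold lower on average in DMSO (log2 -1.31, SE 0.22) and 3.10-fold lower in XMU-MP1 (log2 -1.63, SE 0.22). XMU-MP1 gave -0.35 (SE 0.22) after the knockdown and -0.03 (SE 0.21) in control siRNA, with overlapping groups.

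GCLC (ID 2729, chromosome 6, 53497341 to 53545101, minus strand) had 55.0, 49.2 and 63.2 CPM in siYT_XMU, 78.3, 67.2 and 69.9 CPM in siYT_DMSO, 78.0, 87.1 and 79.9 CPM in siC_XMU, and 61.7, 57.9 and 54.7 CPM in siC_DMSO. The order of the groups turned with the treatment. In DMSO the knockdown libraries lay above the control libraries (log2 0.31, SE 0.14), and in XMU-MP1 they lay below (log2 -0.55, SE 0.14). Equally, XMU-MP1 libraries lay below DMSO libraries after the knockdown (log2 -0.37, SE 0.14) and above them in control siRNA (log2 0.49, SE 0.14). The difference of these 2 effects was -0.86 (SE 0.20), with an adjusted p under 0.05 in only 6 of 22 alternative settings. No pair of groups overlapped in any of the 4 comparisons. Even so, neither the knockdown in DMSO nor XMU-MP1 after the knockdown had an adjusted p under 0.05 for GCLC (edgeR, 0.121 and 0.119).

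TXNRD1 (ID 7296, chromosome 12, 104215779 to 104350307, plus strand) is the cytosolic thioredoxin reductase, which passes electrons of NADPH to thioredoxin. It had 81.0, 63.7 and 80.2 CPM in siYT_XMU, 107, 136 and 197 CPM in siYT_DMSO, 247, 216 and 313 CPM in siC_XMU, and 344, 324 and 343 CPM in siC_DMSO. The 4 groups lay in 4 steps with no overlap between neighbours. The knockdown difference was 2.29-fold lower in DMSO (log2 -1.20, SE 0.22) and 3.45-fold lower in XMU-MP1 (log2 -1.79, SE 0.22). XMU-MP1 libraries were lower after the knockdown (log2 -0.97, SE 0.22) and in control siRNA (log2 -0.38, SE 0.22), and the first value was -0.71 without library c of siYT_DMSO.

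SRXN1 (ID 140809, chromosome 20, 646615 to 653200, minus strand), sulfiredoxin, restores peroxiredoxins that peroxide has over-oxidised. It had 63.7, 77.1 and 44.5 CPM in siYT_XMU, 70.1, 83.2 and 104 CPM in siYT_DMSO, 59.2, 51.1 and 56.7 CPM in siC_XMU, and 49.7, 44.1 and 45.2 CPM in siC_DMSO. Knockdown libraries lay above control libraries in DMSO (1.85-fold, log2 0.89, SE 0.21) and overlapped with them in XMU-MP1 (log2 0.16, SE 0.21). XMU-MP1 gave -0.47 (SE 0.21) after the knockdown, with overlap, and 0.26 (SE 0.20) in control siRNA, without.

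**Figure D2:**
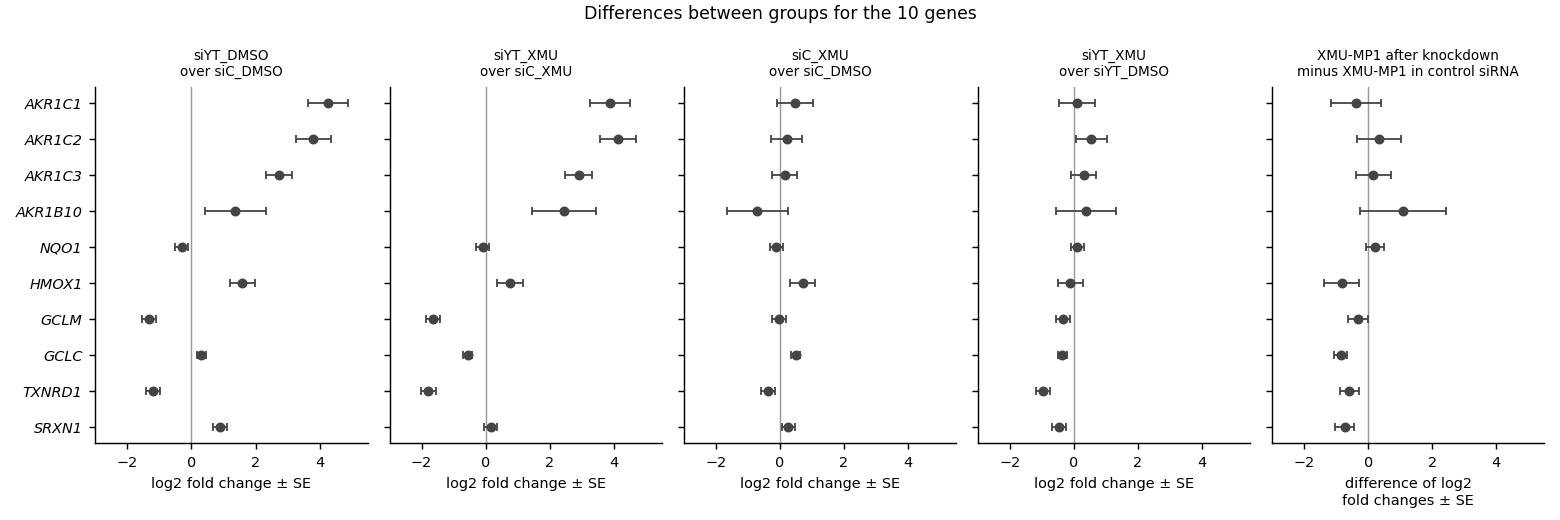
Log2 fold change with its SE (horizontal axes) for the 10 genes in the 4 pairs of groups and for the difference between the 2 effects of XMU-MP1, from the edgeR fit over all 18143 tested genes. The 3 AKR1C genes stand between 2.74 and 4.27 in the knockdown panels and within 1 SE or little more of 0 in the others, and GCLM and TXNRD1 stand between -1.79 and -1.20 in the knockdown panels.

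In the fit over all tested genes an adjusted p under 0.05 (edgeR quasi-likelihood, Benjamini-Hochberg) was taken as a call. In siYT_DMSO over siC_DMSO the calls covered 16.1% of tested genes as higher and 16% as lower. They included 5 of the 10 genes as higher (AKR1C1, AKR1C2, AKR1C3, HMOX1 and SRXN1) and 2 as lower (GCLM and TXNRD1). In siYT_XMU over siC_XMU they covered 17.7% as higher and 18.6% as lower, and included 3 of the 10 as higher (AKR1C1, AKR1C2 and AKR1C3) and 3 as lower (GCLM, GCLC and TXNRD1). SRXN1 was not called in DMSO with scaling by library totals alone or in the FPKM fits (0.66 to 0.71), nor GCLC in XMU-MP1 with upper quartile scaling (-0.38) or only the groups compared (-0.53). AKR1B10 was called in both without library c of siYT_XMU (1.36 in DMSO and 3.00 in XMU-MP1), and HMOX1 in XMU-MP1 without its library a (1.07). Since these genes were selected on values of the same libraries, nothing is read from the counts. The median log2 fold change of the 10 was 1.13 in DMSO and 0.46 in XMU-MP1, against 0.02 and 0.04 over all tested genes.

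The calls for XMU-MP1 were fewer. After the knockdown they covered 4.19% of tested genes as higher and 7.92% as lower and included 1 of the 10, TXNRD1, as lower. In control siRNA they covered 4% as higher and 5.26% as lower and included 1 of the 10, GCLC, as higher. The difference between the 2 effects was called for 0.86% of tested genes as higher and 1.73% as lower, and for 1 of the 10, GCLC, as lower. The GCLC calls held in 6 of 23 alternatives in control siRNA and 6 of 22 for the difference, and not without any 1 library of siC_XMU, siC_DMSO or siYT_DMSO or without library a of siYT_XMU (0.44 to 0.53 in control siRNA), nor, for the difference, without its library b (-0.91 to -0.78). That of TXNRD1 was lost without library c of siYT_DMSO (-0.71) and in a fit of only the groups compared (-0.96). The medians of the 10 were -0.01 after the knockdown, 0.18 in control siRNA and -0.35 for the difference, against 0.02, -0.02 and 0.07 over all tested genes. The comparisons share groups with each other, so their values are given side by side and are not independent.

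Levels of different genes were compared on the authors' FPKM, which take transcript length into account. In siYT_DMSO the order was AKR1C3 (53.4 FPKM), NQO1 (51.2), TXNRD1 (33.9), SRXN1 (33.3), AKR1C2 (22.6), GCLC (18.3), AKR1C1 (12.2), HMOX1 (9.58), AKR1B10 (3.77) and GCLM (2.00). In siC_DMSO it was TXNRD1 (87.9 FPKM), NQO1 (71.6), SRXN1 (20.4), GCLC (16.9), AKR1C3 (9.05), GCLM (5.68), HMOX1 (3.62), AKR1C2 (1.83), AKR1B10 (1.64) and AKR1C1 (0.717). AKR1C3 thus stood first in siYT_DMSO, where its libraries overlapped with those of NQO1, and below TXNRD1, NQO1, SRXN1 and GCLC in siC_DMSO. Neighbours that overlapped in siYT_DMSO were those of each step down to AKR1C2, and AKR1C1 and HMOX1, and in siC_DMSO AKR1C3 and GCLM, HMOX1 and AKR1C2, and AKR1C2 and AKR1B10.

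With XMU-MP1 the orders were close to these. In siYT_XMU AKR1C3 (51.9 ± 26.5 FPKM, SD, n = 3) and NQO1 (43.4 ± 18.8 FPKM) led, AKR1C2 had 25.9 ± 17.5 FPKM, AKR1C1 10.0 ± 4.61 FPKM, and GCLM was last at 1.21 ± 0.426 FPKM, and every pair of neighbours overlapped. In siC_XMU TXNRD1 (64.1 ± 14.4 FPKM) and NQO1 (62.9 ± 7.80 FPKM) led and overlapped, AKR1C3 had 9.55 ± 4.56 FPKM, and AKR1B10 (0.947 ± 0.285 FPKM) and AKR1C1 (0.942 ± 0.955 FPKM) were last. Among the AKR1C genes AKR1C3 was highest and AKR1C1 lowest in the mean of each of the 4 groups.

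**Figure D3:**
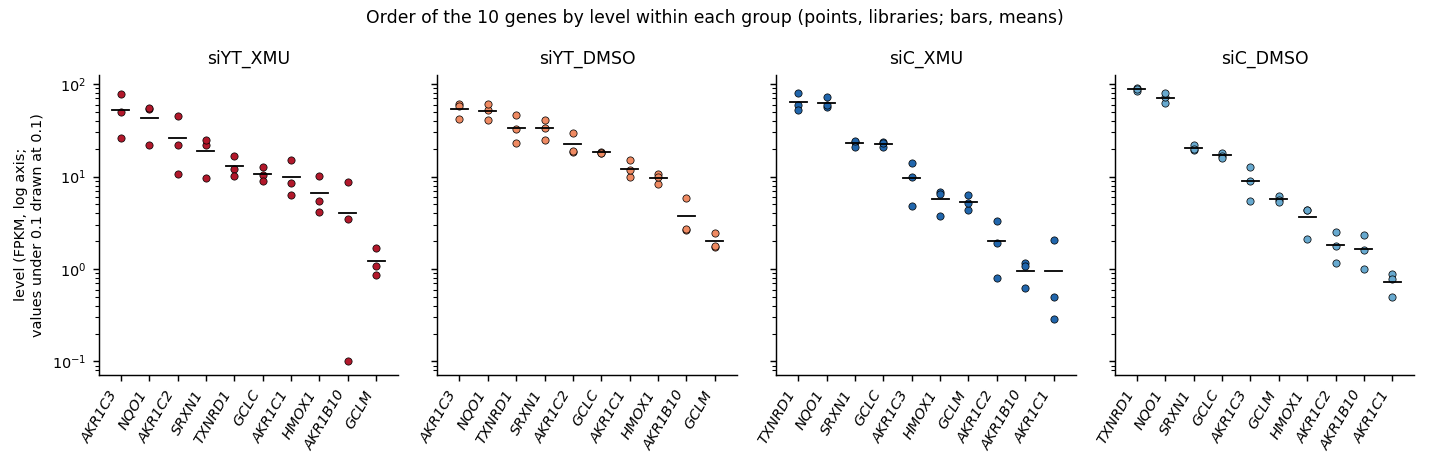
Levels of the 10 genes in FPKM (vertical axis, logarithmic) ordered by the group mean within each group, with points for libraries and bars for means. AKR1C3 has 51.9 and 53.4 FPKM in the knockdown groups and is first there, and TXNRD1 has 64.1 and 87.9 FPKM in the control siRNA groups and is first there.

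Other genes of the pathway, 101 in 7 lists by role, were read from the same fit, and 93 of them were tested. After the knockdown in DMSO 14 rose (15.1%) and 16 fell (17.2%), against 16.1% and 16% of all tested genes. In XMU-MP1 26 rose (28%) and 10 fell (10.8%), against 17.7% and 18.6% of all. The DMSO shares lie near those of all genes and show nothing particular to the lists. The median log2 fold changes were 0.04 in DMSO and 0.24 in XMU-MP1 over the lists, against 0.02 and 0.04 over all genes. The split turned with the scaling: with libraries scaled by their totals alone, 8 rose and 15 fell in DMSO and 13 rose and 18 fell in XMU-MP1. Adjusted p-values below are from edgeR's quasi-likelihood test over all tested genes, values are mean ± SD in CPM with n = 3, and up to 4 genes a list are named in each comparison by the smallest adjusted p.

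Regulators of NRF2 showed 3 of 15 tested genes higher and 1 lower after the knockdown in DMSO. BACH1, the competing repressor, rose to 67.1 ± 4.52 CPM in siYT_DMSO, against 24.0 ± 1.96 CPM in siC_DMSO (log2 1.48, adjusted p = 0.000177). GSK3B, a kinase that marks NRF2 for degradation, rose (0.83, adjusted p = 0.00161), as did BTRC, the ligase adaptor that reads this mark (0.94, adjusted p = 0.00522). The BTRC call was lost with scaling by library totals alone and in both FPKM fits (0.61 to 0.76). PALB2, which binds KEAP1, fell (-0.97, adjusted p = 0.0423), a call kept in 13 of 23 alternative settings and lost without any 1 library of siYT_DMSO or siC_DMSO or without library b or c of siC_XMU (adjusted p between 0.0539 and 0.140).

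In XMU-MP1 3 of the 15 regulators rose and 3 fell with the knockdown. NFE2L2 fell to 84.7 ± 9.73 CPM in siYT_XMU, against 151 ± 2.55 CPM in siC_XMU (log2 -0.83, adjusted p = 0.00321). KEAP1 fell to 17.6 ± 8.07 CPM in siYT_XMU, against 38.7 ± 10.4 CPM in siC_XMU (-1.12, adjusted p = 0.0120), and this call was lost without library c of siC_XMU (adjusted p = 0.0509). In DMSO the 2 genes were not called, with NFE2L2 at 134 ± 25.0 CPM in siYT_DMSO and 158 ± 25.6 CPM in siC_DMSO and KEAP1 at 67.1 ± 9.56 CPM in siYT_DMSO and 73.3 ± 9.57 CPM in siC_DMSO. TRIM16, an E3 ligase reported to act in the NRF2 response, rose in XMU-MP1 (1.69, adjusted p = 0.0189), and MAFF, a small MAF protein, rose as well (0.63, adjusted p = 0.0233). The call of TRIM16 was lost without library b of siYT_XMU or library a or b of siC_XMU (1.23 to 1.59), and that of MAFF without library a or b of siYT_XMU or b or c of siC_XMU (0.51 to 0.63). TRIM16 and its copy TRIM16L can share reads.

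XMU-MP1 moved some of the same regulators. After the knockdown 5 of the 15 fell (33.3%), against 7.92% of all tested genes, and the share was not tested. The number of all genes called lower turned with the scaling, at 1437 in the main fit, 1078 with upper quartile scaling and 2135 with library totals alone. KEAP1 fell to 17.6 ± 8.07 CPM in siYT_XMU, against 67.1 ± 9.56 CPM in siYT_DMSO (-1.92, adjusted p = 0.00234), and BACH1 to 31.1 ± 8.07 CPM in siYT_XMU, against 67.1 ± 4.52 CPM in siYT_DMSO (-1.12, adjusted p = 0.00456). TRIM16 (-1.88, adjusted p = 0.0298) and NFE2L2 (-0.66, adjusted p = 0.0306) fell too. TRIM16 lost its call without library a or c of siYT_XMU or c of siYT_DMSO (-1.81 to -1.01), and NFE2L2 without library a or b of siYT_XMU, b or c of siYT_DMSO, or a or b of siC_XMU (-0.67 to -0.57). In control siRNA TRIM16 fell to 20.8 ± 7.78 CPM in siC_XMU, against 115 ± 1.20 CPM in siC_DMSO (-2.46, adjusted p = 0.0114), and GSK3B rose to 140 ± 5.41 CPM in siC_XMU, against 87.3 ± 9.57 CPM in siC_DMSO (0.68, adjusted p = 0.0192). The first call was lost without library b of siC_XMU (-2.37, adjusted p = 0.0621), and the second without any 1 of the 6 control siRNA libraries (0.59 to 0.73).

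Of 18 tested genes of glutathione use and supply, 3 rose and 5 fell after the knockdown in DMSO, and 6 rose and 4 fell in XMU-MP1. SLC7A11, the cystine carrier that feeds glutathione synthesis, had 3.13, 1.35 and 1.46 CPM in siYT_DMSO and 117, 37.0 and 15.5 CPM in siC_DMSO (-4.87, SE 0.75, adjusted p = 0.000423). In XMU-MP1 it had 5.75, 2.15 and 5.59 CPM in siYT_XMU and 101, 50.4 and 49.2 CPM in siC_XMU (-3.94, SE 0.73, adjusted p = 0.00141). The highest knockdown library thus lay at 5.75 CPM and the lowest control library at 15.5 CPM. SLC3A2, its partner chain, fell as well (-1.09, adjusted p = 0.00267 in DMSO, and -0.83, adjusted p = 0.0117 in XMU-MP1).

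The glutathione transferases went both ways. GSTA4, which conjugates lipid aldehydes, rose to 27.9 ± 16.2 CPM in siYT_DMSO, against 2.77 ± 0.470 CPM in siC_DMSO (3.33, adjusted p = 0.000462), and to 30.9 ± 18.4 CPM in siYT_XMU, against 1.73 ± 0.683 CPM in siC_XMU (4.16, adjusted p = 0.000137). The microsomal transferases MGST1 (1.09, adjusted p = 0.000460) and MGST3 (1.01, adjusted p = 0.000868) rose in XMU-MP1, calls lost with scaling by library totals alone and in the FPKM fits. GSTO1, an omega class transferase, fell in DMSO to 66.5 ± 16.8 CPM in siYT_DMSO, against 135 ± 11.5 CPM in siC_DMSO (-1.02, adjusted p = 0.00349).

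Among 12 thioredoxin, peroxiredoxin and glutaredoxin genes, 2 rose and 1 fell in DMSO, and 3 were called in XMU-MP1, all higher. GLRX, a cytosolic glutaredoxin, had 130, 121 and 96.3 CPM in siYT_DMSO and 10.7, 15.6 and 14.0 CPM in siC_DMSO (3.11, SE 0.47, adjusted p = 0.000343). In XMU-MP1 it had 100, 164 and 29.2 CPM in siYT_XMU and 8.60, 11.4 and 11.3 CPM in siC_XMU (3.24, SE 0.47, adjusted p = 0.000274). No knockdown library overlapped with a control library for GLRX. PRDX5 (1.04, adjusted p = 0.00470) and the mitochondrial thioredoxin TXN2 (0.93, adjusted p = 0.00344) rose in XMU-MP1, and PRDX4 of the endoplasmic reticulum fell in DMSO (-0.83, adjusted p = 0.0164), a call lost without library b of siYT_DMSO or of siC_DMSO (-0.73 and -0.78). TXN2 was also called in DMSO (0.60, adjusted p = 0.0361), but in only 11 of 23 alternatives, and not without any 1 library of siYT_DMSO or siC_DMSO, a of siYT_XMU, or b or c of siC_XMU (0.54 to 0.62). That call was also lost with scaling by library totals alone (0.41) and in both FPKM fits (0.41 and 0.40). The XMU-MP1 calls of PRDX5 and TXN2 were lost with scaling by library totals alone and in both FPKM fits (0.35 to 0.62).

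Of 7 genes that supply NADPH, the cofactor of the aldo-keto reductases, 2 were called in DMSO and 3 in XMU-MP1, all higher. ME1, malic enzyme, rose to 119 ± 33.7 CPM in siYT_DMSO, against 46.3 ± 3.61 CPM in siC_DMSO (1.36, adjusted p = 0.00134), and to 116 ± 33.7 CPM in siYT_XMU, against 30.4 ± 4.70 CPM in siC_XMU (1.92, adjusted p = 0.000146). TALDO1, of the pentose phosphate pathway, rose in XMU-MP1 (0.70, adjusted p = 0.0341), a call kept in 10 of 23 alternatives and lost without library a or b of siYT_XMU, b or c of siYT_DMSO, b or c of siC_XMU or any 1 library of siC_DMSO (0.38 to 0.70). With scaling by library totals alone TALDO1 was at 0.29, and in both FPKM fits at 0.10, not called.

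Among 9 haem and iron genes 3 were called in DMSO, all lower, and 1 rose and 1 fell in XMU-MP1. FTL, the ferritin light chain, fell to 298 ± 85.5 CPM in siYT_DMSO, against 656 ± 178 CPM in siC_DMSO (-1.14, adjusted p = 0.00609), and to 444 ± 48.0 CPM in siYT_XMU, against 1006 ± 237 CPM in siC_XMU (-1.18, adjusted p = 0.00484). TFRC, the transferrin receptor, fell in DMSO to 120 ± 11.0 CPM in siYT_DMSO, against 256 ± 37.6 CPM in siC_DMSO (-1.09, adjusted p = 0.000301). FECH, which inserts iron in the step that forms haem, fell there too (-0.74, adjusted p = 0.00727). BLVRB, a biliverdin reductase, rose in XMU-MP1 (1.08, adjusted p = 0.0282), a call lost without library a or b of siYT_XMU or b or c of siC_XMU (0.66 to 1.17). That call was also lost with scaling by library totals alone (0.69) and in the FPKM fits (0.43 and 0.42). TFRC was higher with XMU-MP1 after the knockdown, at 319 ± 32.4 CPM in siYT_XMU and 120 ± 11.0 CPM in siYT_DMSO (1.41, adjusted p = 0.000354).

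Of 22 tested genes of conjugation, quinone and carbonyl detoxification and export, 2 rose and 5 fell in DMSO, and 6 rose and 2 fell in XMU-MP1. Among the ABCC exporters of conjugates, ABCC1 fell to 7.86 ± 0.366 CPM in siYT_DMSO, against 35.5 ± 7.33 CPM in siC_DMSO (-2.17, adjusted p = 4.18e-05), while ABCC3 rose to 117 ± 7.90 CPM in siYT_DMSO, against 56.3 ± 17.4 CPM in siC_DMSO (1.05, adjusted p = 0.00198). ABCC4 (-1.83, adjusted p = 0.00240) and ABCC2 (-1.75, adjusted p = 0.00397) fell in DMSO. In XMU-MP1 ABCC1 fell (-1.32, adjusted p = 0.00109) and ABCC3 rose (1.78, adjusted p = 6.69e-05), and ALDH1A3, a retinal dehydrogenase, rose to 599 ± 168 CPM in siYT_XMU, against 128 ± 13.1 CPM in siC_XMU (2.23, adjusted p = 0.000579).

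CYP1B1, an oestrogen- and hydrocarbon-oxidising cytochrome, had the largest fall among the 4 genes of these lists that were called for XMU-MP1 in control siRNA. It had 2.20, 2.65 and 3.67 CPM in siC_XMU and 34.5, 52.2 and 62.6 CPM in siC_DMSO (-4.13, SE 0.40, adjusted p = 0.000259). After the knockdown it had 25.9, 33.4 and 35.4 CPM in siYT_XMU and 66.6, 83.7 and 178 CPM in siYT_DMSO (-1.80, SE 0.36, adjusted p = 0.00797). The knockdown libraries were thus above the control siRNA libraries within each treatment, with 3.46 in XMU-MP1 (adjusted p = 5.22e-05) and 1.14 in DMSO (adjusted p = 0.0276). TRIM16L fell with XMU-MP1 in both arms, by 1.27 on the log2 scale after the knockdown (adjusted p = 0.0198) and by 2.63 in control siRNA (adjusted p = 0.000857), the first of which was not called without library a of siYT_XMU or c of siYT_DMSO (-1.08 and -0.83). ABCC2 rose with XMU-MP1 after the knockdown (1.30, adjusted p = 0.0444), a call kept in 7 of 23 alternatives and, leaving out 1 library at a time, only without c of siYT_XMU or c of siC_XMU.

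Of 10 other tested aldo-keto reductases, 2 rose and 1 fell in DMSO and 4 were called in XMU-MP1, all higher. AKR1B1, aldose reductase, had 647, 1571 and 1467 CPM in siYT_DMSO and 167, 290 and 245 CPM in siC_DMSO (2.39, SE 0.47, adjusted p = 0.00203). In XMU-MP1 it had 761, 2188 and 694 CPM in siYT_XMU and 195, 288 and 232 CPM in siC_XMU (2.35, SE 0.47, adjusted p = 0.00220). AKR1B15, the near copy of AKR1B10, had 6.01, 6.79 and 8.17 CPM in siYT_DMSO and at most 0.0613 CPM in siC_DMSO (7.46, SE 1.10, adjusted p = 0.000305), with 7.84 (SE 1.15, adjusted p = 0.000303) in XMU-MP1. Reads of AKR1B10 and AKR1B15 may have been exchanged, and the part of this in either value was not tested.

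AKR7A3, an aflatoxin aldehyde reductase, had no count in the 3 siYT_DMSO libraries and 0.194 ± 0.185 CPM in siC_DMSO, at least 2.50-fold lower against a floor of 3 counts per library (adjusted p = 0.00791). That bound rests on library b of siC_DMSO, without which it was 1.12-fold, and the call was lost in both FPKM fits (adjusted p = 0.115 and 0.302). AKR7L was at 0 in all siC_XMU libraries and at 0.574 ± 0.499 CPM in siYT_XMU, at least 10.9-fold higher (adjusted p = 0.0286), although library c of siYT_XMU was at 0 as well, and the call was lost without any 1 library of siC_XMU or without a or b of siYT_XMU (adjusted p between 0.0677 and 0.0777). With XMU-MP1 after the knockdown AKR7A3 was at least 14.9-fold higher, at 1.16 ± 0.322 CPM in siYT_XMU (adjusted p = 0.00507). KCNAB1, a potassium channel beta subunit of the reductase fold, was called higher in siYT_XMU over siC_XMU and over siYT_DMSO through library c of siYT_XMU, which had 59.5 CPM against at most 1.02 CPM elsewhere. Without that library its log2 fold changes were 0.46 and 1.16, and neither was called.

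**Figure D4:**
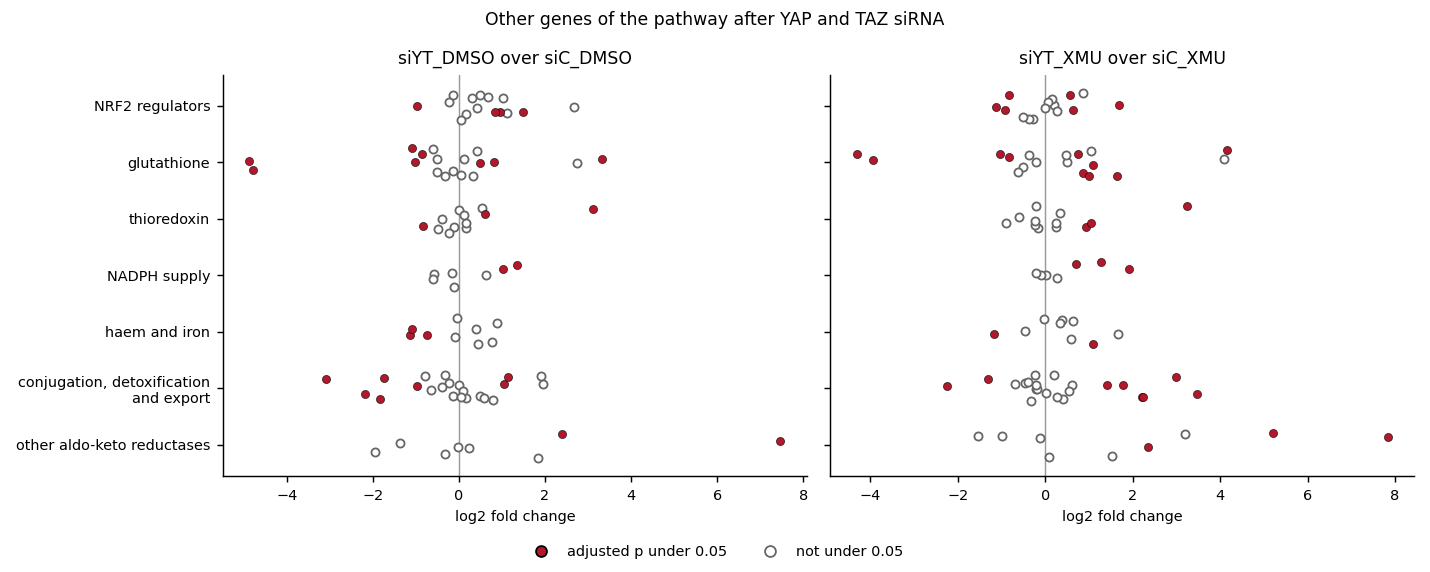
Log2 fold changes (horizontal axes) of the tested genes of the 7 lists in siYT_DMSO over siC_DMSO (left) and in siYT_XMU over siC_XMU (right), with filled points for an adjusted p under 0.05 and open points for the rest, and without the genes at 0 in all libraries of a group. Filled points lie on both sides of 0 in the glutathione list, where SLC7A11 is at -4.87 and -3.94 and GSTA4 at 3.33 and 4.16, and at the right for AKR1B15.

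With XMU-MP1, 11 of the 93 pathway genes were called after the knockdown, 4 higher (4.30%) and 7 lower (7.53%), against 4.19% and 7.92% of all tested genes. In control siRNA 4 were called, 1 higher (1.08%) and 3 lower (3.23%), against 4% and 5.26% of all. These shares lie near or under those of all genes. The first count was 5 without library c of siYT_DMSO, 7 without its library b or without library b of siC_XMU, and 19, with 14 higher and 5 lower, without library c of siYT_XMU. With upper quartile scaling 9 were higher and 5 lower. The second count was 2 without library b of siC_XMU and 7 without library c of siYT_XMU.

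By the shape of their levels over the 12 libraries, the tested genes with a mean of at least 5 FPKM that were most like AKR1C1 were WDTC1 (Pearson r of log2 CPM 0.98), ITGB6 (0.98), CPA4 (0.98), SLC27A4 (0.98) and FURIN (0.97), out of 6789. Those values mainly restate the gap between knockdown and control siRNA libraries, as FURIN shows, with means of 768 and 921 CPM in siYT_XMU and siYT_DMSO and 106 and 119 CPM in siC_XMU and siC_DMSO. HMOX1 was most like FAM89B (0.94), BCR (0.93), STAT3 (0.93), SCARB2 (0.93) and DEDD2 (0.92). For NQO1, whose groups overlapped, the genes closest in shape included HDAC1 (0.91), GMPPA (0.91), KXD1 (0.90) and OCIAD2 (0.88). Libraries share depth and scaling, and the values are given without a test.

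Markers of hepatocytes, in which AKR1C enzymes are also abundant, and of other cell types moved with the AKR1C genes only in part. Of 6 hepatocyte markers, APOB and TTR were at 0 in all libraries, and SERPINA1, which epithelia also make, gave nearly all of the list's sum. The list summed to between 60.3 and 102 CPM in siYT_XMU, 38.7 and 95.2 CPM in siYT_DMSO, 18.7 and 28.7 CPM in siC_XMU, and 19.5 and 34.5 CPM in siC_DMSO. ALB, the hepatocyte product albumin, had 0.793 CPM in library b of siYT_XMU and 0 elsewhere. Leukocyte markers summed to between 69.8 and 200 CPM in siYT_XMU, 83.7 and 153 CPM in siYT_DMSO, 20.1 and 29.5 CPM in siC_XMU, and 44.1 and 61.3 CPM in siC_DMSO, mostly from CD68 and CD14, and from LYZ at 58.6 CPM in library c of siYT_XMU, while PTPRC, which defines leukocytes, reached 5.59 CPM in that library and at most 0.541 CPM in any other. LYZ also had 5.03 CPM in library b of siYT_XMU, and at most 0.160 CPM outside libraries b and c of that group. Fibroblast markers summed to at most 137 CPM in a library and endothelial markers to at most 8.49 CPM, both in the siYT_XMU group. COL1A2, a fibroblast marker, had 33.4 CPM in library c and 2.84 CPM in library b of siYT_XMU, against at most 0.0697 CPM elsewhere. Endothelial sums in DMSO ran between 0.918 and 2.10 CPM in siYT_DMSO and between 1.97 and 3.82 CPM in siC_DMSO. The share of ribosomal RNA also differed between the siRNA arms, and the part of either in the values was not tested. Without library c of siYT_XMU, the log2 fold changes of siYT_XMU over siC_XMU were 3.97 (SE 0.69) for AKR1C1, 4.39 (SE 0.56) for AKR1C2, 3.09 (SE 0.44) for AKR1C3, -1.63 (SE 0.24) for GCLM and -1.84 (SE 0.26) for TXNRD1. Library b of siYT_XMU was kept in that fit.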

How the data were processed

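Poly(A) RNA from 12 libraries of MCF10A was sequenced with a stranded paired-end kit, per the labels' protocols. The submitters' processing notes name cutadapt, FastQC, HISAT2, StringTie, edgeR and GRCh38.p13, with no versions. The deposited table holds whole-number read counts and FPKM per gene and library, per the file headers; the method of assigning reads is not given in the sources used here. A count of 0 has an FPKM of 0.0001 in the deposited table. From the counts, edgeR 4.0.16 (R 4.3.3) filtered genes with filterByExpr, scaled by TMM, fitted 4 group means and tested 5 contrasts by the quasi-likelihood test, two-sided, with Benjamini-Hochberg adjustment over 18143 genes at 0.05. The script was tested on simulated data. The 4 pairs of groups and the difference between the 2 effects of XMU-MP1 were compared, with alternatives in scaling, filter, tool (DESeq2 1.42.0, limma 3.58.1 on voom values and on log2(FPKM + 0.1) and log2(FPKM + 1)), block, groups fitted and each library left out. CPM use TMM library sizes. Levels of different genes were compared in FPKM. Figures and sequence comparisons used Python 3.11.15, pandas 2.3.3, Biopython 1.88 and matplotlib 3.10.9.

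The 10 genes, the 7 pathway lists and the marker lists were chosen with earlier results of these data known. In each list and comparison the 4 genes with the smallest adjusted p under 0.05 were named, together with NFE2L2, KEAP1, BACH1, AKR1C4, AKR1B15 and the siRNA targets; a few genes are not reported here, though counts over lists include them. The sum of AKR1C1 to AKR1C3 and the mention of LYZ, COL1A2 and FURIN were chosen after the values were seen. The labels do not say whether libraries of a group came from separate cultures, so that p-values measure only the spread between these samples, which may be technical, and no batch is given. Limits from a count of 0 (3 counts) cover counting error only. The library letters were checked as pairs: of 18 same-letter pairs, 8 had a correlation of deviations from the group means over 0.1 (range 0.0110 to 0.251). All were positive, and 11 of 12 libraries had their closest match in another group within their own letter, so pairing by letter remains possible. The labels do not give the letters as pairs, so the main fit has no block, and a fit with the letters as a block is given at the end.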

Additional observations from a re-analysis of the deposited data

Results flagged for a closer look

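For 5 of the genes described, the effect of XMU-MP1 after the knockdown differed from that in control siRNA by the interaction term of the edgeR fit over all 18143 genes. For GCLC, one of the 10 genes chosen with values of these libraries known, the difference was -0.86 (log2, SE 0.20), with XMU-MP1 libraries below DMSO libraries after the knockdown and above them in control siRNA, and it was called in 6 of 22 alternatives.

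The others are genes of the pathway lists. CYP1B1 had a difference of 2.33 (SE 0.51, adjusted p = 0.0359, edgeR), with log2 changes of -1.80 after the knockdown and -4.13 in control siRNA, and was called in 9 of 22 alternatives, with adjusted p-values up to 0.271. BACH1 had -1.34 (SE 0.28, adjusted p = 0.0313), with -1.12 after the knockdown, where all 3 siYT_XMU libraries lay below all 3 siYT_DMSO libraries, and 0.22 in control siRNA, and was called in 11 of 22 alternatives, with adjusted p-values up to 0.0958. TFRC had 1.43 (SE 0.23, adjusted p = 0.0117), with 1.41 after the knockdown and -0.02 in control siRNA, and was called in 19 of 22 alternatives, with adjusted p-values up to 0.0847. AKR7A3 had a fitted difference of 7.88 (SE 1.75, adjusted p = 0.0470), which depends on the prior count since the 3 siYT_DMSO libraries had no count, and was called in 5 of 21 alternatives, with adjusted p-values up to 0.125.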

How the results depend on the processing

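Of 1140 log2 fold changes of the 10 genes under alternative settings, 1080 moved by less than the spread between replicates and 60 by more, and no called value changed sign. AKR1C1, AKR1C2, AKR1C3, GCLM and TXNRD1 passed the threshold in all 23 alternatives in both knockdown comparisons. Of 65 calls of pathway genes that the naming rule picks, 35 held in every alternative, and none changed sign. Scaling by library totals alone gave 1909 genes higher and 2906 lower for siYT_DMSO over siC_DMSO, 1898 and 4800 for siYT_XMU over siC_XMU, 416 and 2135 for XMU-MP1 after the knockdown, 288 and 649 in control siRNA, and 54 and 211 for the difference. With it the median of all genes was -0.15, -0.41, -0.33, -0.10 and -0.20 in that order of comparisons. In the main fit it was 0.02, 0.04, 0.02, -0.02 and 0.07. Upper quartile scaling gave 1231 higher and 1078 lower for XMU-MP1 after the knockdown and 248 and 235 for the difference.

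XMU-MP1 after the knockdown had 2198 genes called; the alternatives gave 866 with only the groups compared, 3617 with DESeq2, 3302 with log2(FPKM + 0.1), 3414 with log2(FPKM + 1), and 1159 to 2885 without 1 library. In control siRNA 1680 were called, against 937 (library totals), 4044 (only the groups compared), 3056 (DESeq2), 3314 (voom), 1086 (log2(FPKM + 0.1)) and 629 to 2661 without 1 library. The difference had 470, against 265 (library totals), 1783 (DESeq2), 1136 (voom), 715 (log2(FPKM + 1)) and 86 to 1006 without 1 library. Without 1 library 4451 to 7099 genes were called for siYT_DMSO over siC_DMSO and 4896 to 7312 for siYT_XMU over siC_XMU.

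Among the 10 genes, the count without 1 library was 7 to 8 for siYT_DMSO over siC_DMSO and 6 to 7 for siYT_XMU over siC_XMU. For XMU-MP1 after the knockdown it was 2 with library totals and with both FPKM fits, 0 with only the groups compared, and 0 to 2 without 1 library. In control siRNA it was 0 with no filter, RLE, upper quartile, library totals, the block and both FPKM fits, and 0 to 1 without 1 library. For the difference it was 0 with no filter, the 1 CPM filter, RLE, upper quartile and the block, and 0 to 1 without 1 library. In these settings with 0, 1 to 3 of the 10 had an unadjusted p under 0.05. Among pathway genes, XMU-MP1 in control siRNA gave 11 with only the groups compared, 9 with DESeq2, 11 with voom and 2 to 7 without 1 library; after the knockdown 4 with only the groups compared and 5 to 19 without 1 library; and the difference 1 with library totals, 14 with DESeq2, 7 with voom, 1 and 2 with the FPKM fits and 1 to 8 without 1 library. The counts for siYT_DMSO over siC_DMSO were 24 to 40 and for siYT_XMU over siC_XMU 26 to 42 without 1 library.

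With the letters as a replicate block, 5799, 6402, 2110, 1718 and 471 genes were called in the order above, 7, 6, 1, 0 and 0 of the 10 genes, and 34, 35, 11, 7 and 4 pathway genes; 11 of 12 libraries had their closest match within their letter, a hint from the data only.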
